A study of Mus musculus with 13 samples.

Results

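The chemokine ligand genes Ccl3, Ccl4, Ccl6, Ccl9, Cxcl10 and Cxcl16 and the fractalkine pair, Cx3cl1 and its receptor gene Cx3cr1, were examined in RNA sequencing data from mouse cortex. The 8 genes were taken by name, and all 8 were among the 20971 genes measured. They were chosen with earlier results of these data known, so counts of them beside those of all genes are descriptive. All had a mean of at least 0.5 RPKM (reads scaled by gene length and by the mapped reads of the library) over the libraries, so 0 of them were marked as weakly expressed. The libraries are labelled as 7 from APPPS1;Apoe-/- mice, which lack the gene for apolipoprotein E, and 6 from APPPS1 mice, all aged 6 months and of strain C57BL/6. By these labels both groups carry the APPPS1 transgenes, mutant human genes for amyloid precursor protein and presenilin driven in neurons by the Thy1 promoter, with which such mice deposit amyloid plaques. Mice without the transgenes are not among the labelled groups, which share strain and age.

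Chemokines are small secreted proteins that guide the movement of leukocytes by binding receptors coupled to G proteins. In brains with plaques, microglia are a main source of the CC chemokines CCL3 and CCL4. CX3CL1, or fractalkine, is made mainly by neurons as a membrane-bound protein that can be shed, and its receptor CX3CR1 is carried in the brain chiefly by microglia. Of the 8 genes, Cx3cl1 is thus the one whose transcripts come mainly from neurons.

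Apoe separated the groups, at 5.44 ± 0.888 RPKM in APPPS1;Apoe-/- libraries and 581 ± 84.2 RPKM in APPPS1 libraries (SD, n = 7 and n = 6). Alignments numbered 18455493 to 34538031 in APPPS1;Apoe-/- libraries and 28402328 to 77005806 in APPPS1 libraries. Of the APPPS1;Apoe-/- libraries, replicate 2 had 106 RPKM of App and replicate 5 had 116 RPKM, while App, to which transgene reads can align, lay between 176 and 217 RPKM in the remaining 11. Thy1, the gene whose promoter drives the transgenes, was at 52.2 and 56.9 RPKM in these replicates, while the remaining 11 started at 172 RPKM. Both genes thus go against the label of these 2 libraries as carrying the transgenes, and whether their mice carried the transgenes was not tested. Each comparison is therefore also given without these low-App libraries. A sex score, log2 Xist minus the mean log2 value of Y-linked genes, marked 2 APPPS1;Apoe-/- libraries and 1 APPPS1 library as male.

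The genotype comparison showed that 5 of the 8 genes were lower in APPPS1;Apoe-/- cortex and 0 were higher. The genes that passed were Ccl3, Ccl4, Ccl6, Cxcl10 and Cx3cr1, while Ccl9, Cxcl16 and Cx3cl1 did not. Across all 13343 genes tested, 4.74% were called lower and 3.48% higher at an adjusted p under 0.05. The test was limma on log2(RPKM + 0.5) with Benjamini-Hochberg adjustment over all tested genes, and log2 changes are APPPS1;Apoe-/- minus APPPS1, a scale that understates the change of weak genes. The median log2 change of the 8 genes was -0.74, beside -0.01 over all genes tested. Without the low-App libraries 5 of the 8 were again lower and 0 higher, beside 3.3% and 1.78% of all genes, and their median was -0.55. In bulk tissue, fewer cells of a type and less RNA per cell cannot be told apart.

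**Figure D1:**
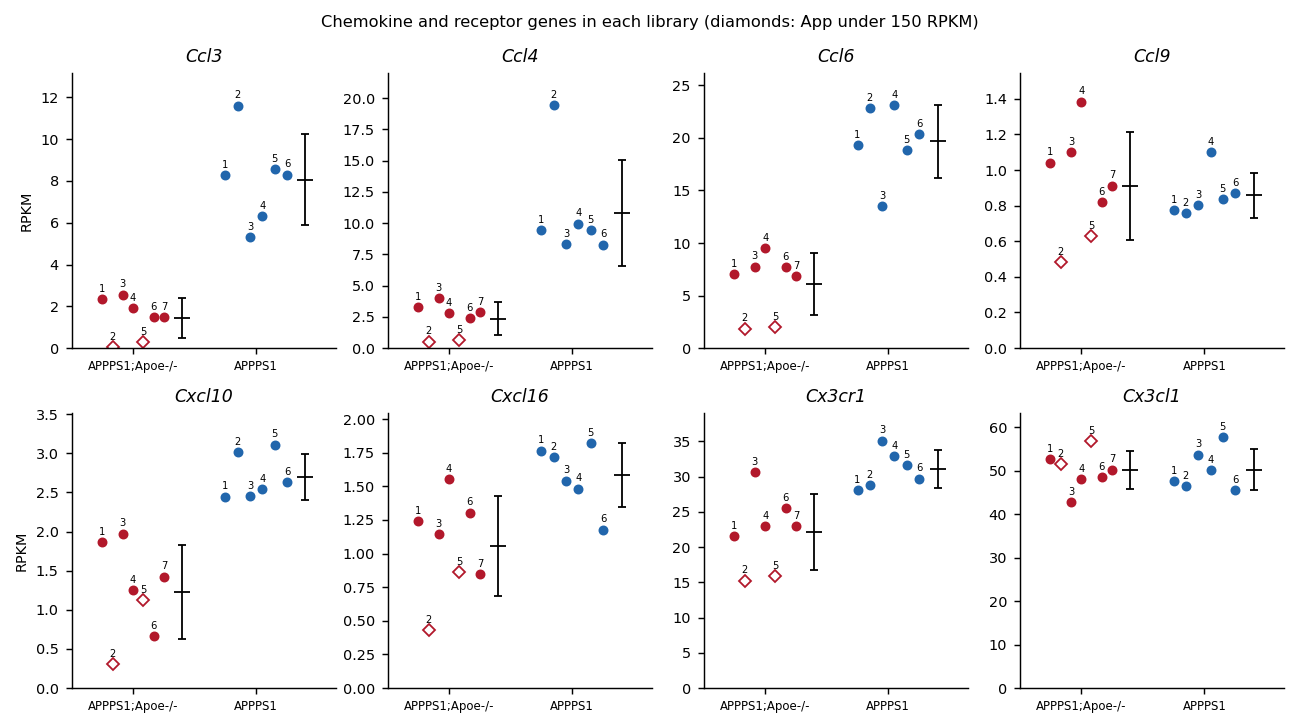
RPKM of the 8 genes by library (numbered points are replicates), with APPPS1;Apoe-/- left of APPPS1 on each horizontal axis; bars show means, whiskers SD (n = 7 and n = 6), and open diamonds are the libraries with App under 150 RPKM. The groups are separate for Ccl3, Ccl4, Ccl6 and Cxcl10 and overlap for Ccl9, Cxcl16, Cx3cr1 and Cx3cl1.

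Ccl3 and Ccl4 showed the largest differences of the 8 genes. Both encode CC chemokines that attract monocytes and T cells. Ccl3 was at 0.0612, 1.49 and 2.56 RPKM (lowest, median and highest) in APPPS1;Apoe-/- libraries, against 5.32, 8.298 and 11.6 RPKM in APPPS1 libraries. The highest APPPS1;Apoe-/- library thus lay below the lowest APPPS1 library. The group means were 1.45 ± 0.962 and 8.07 ± 2.17 RPKM (SD, n = 7 and n = 6), so the APPPS1;Apoe-/- mean was 17.9% of the APPPS1 mean. The log2 change was -2.32 ± 0.35 (SE, limma adjusted p = 0.00091). The low-App replicates 2 and 5 were lowest, at 0.0612 and 0.277 RPKM. The value of replicate 2 corresponds to an estimated 1.28 reads, and counting error is large there.

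Ccl4 followed the same order of libraries at its low end. It was at 0.513, 2.80 and 3.98 RPKM (lowest, median and highest) in APPPS1;Apoe-/- libraries, against 8.29, 9.45 and 19.4 RPKM in APPPS1 libraries. The groups did not overlap, and replicates 2 and 5 were again lowest, at 0.513 and 0.663 RPKM. The log2 change was -2.10 ± 0.32 (SE, limma adjusted p = 0.00107). APPPS1 replicate 2 was the highest library for both genes. Without the low-App libraries the group means were 1.96 ± 0.489 and 8.07 ± 2.17 RPKM for Ccl3 and 3.06 ± 0.603 and 10.8 ± 4.27 RPKM for Ccl4 (SD, n = 5 and n = 6). The log2 changes were then -1.78 for Ccl3 and -1.62 for Ccl4 (limma adjusted p = 2.32e-05 and 1.37e-04). With all 13 libraries and alignments (log2) as a covariate, the changes were -2.16 and -1.88 (limma adjusted p = 0.0304 and 0.0393). These were the 2 members called lower in that fit, where 0.989% of all genes were. The difference between the 2 genes, log2 Ccl3 minus log2 Ccl4, was -0.59 on average in APPPS1;Apoe-/- libraries and -0.37 in APPPS1 libraries, a gap of -0.22.

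Ccl6, a chemokine gene found in rodents, was lower as well, and Ccl9, a rodent gene of the same subfamily, was not. Ccl6 was at 1.85, 7.02 and 9.53 RPKM (lowest, median and highest) in APPPS1;Apoe-/- libraries, against 13.5, 19.8 and 23.1 RPKM in APPPS1 libraries. Its groups did not overlap, and replicates 2 and 5, at 1.85 and 2.03 RPKM, lay well below the other 5 APPPS1;Apoe-/- libraries, which started at 6.83 RPKM. The log2 change was -1.77 ± 0.31 (SE, limma adjusted p = 0.00303), and -1.27 without the low-App libraries (adjusted p = 2.33e-05). With the alignments covariate over 13 libraries it was -1.71 and missed the threshold (limma adjusted p = 0.0521).

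Ccl9 was at 0.482, 0.912 and 1.38 RPKM (lowest, median and highest) in APPPS1;Apoe-/- libraries, against 0.756, 0.821 and 1.10 RPKM in APPPS1 libraries. The APPPS1;Apoe-/- libraries spanned the APPPS1 range: 2 lay below it, 3 inside and 2 above it. The 2 below were the low-App replicates 2 and 5. For Ccl9 the log2 change was 0.03 ± 0.13 (SE, limma adjusted p = 0.9075; 95% interval -0.24 to 0.30). It was 0.19 without the low-App libraries, with an interval of -0.02 to 0.40 (limma adjusted p = 0.297). The value is close to the filter of 0.5 RPKM.

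Ccl9 and its neighbours were also set side by side as differences of log2 values within each library. These pairs of genes were chosen after their values had been seen, so the differences are given here as a description, without p-values. Log2 Ccl3 minus log2 Ccl9 averaged 0.27 in APPPS1;Apoe-/- libraries and 2.62 in APPPS1 libraries, a gap of -2.35. The corresponding gaps were -2.13 for Ccl4 and -1.81 for Ccl6. For all 3 pairs the highest APPPS1;Apoe-/- library lay below the lowest APPPS1 library. Without the low-App libraries the gaps were -1.97 for Ccl3, -1.81 for Ccl4 and -1.46 for Ccl6.

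Ccl9, Ccl6, Ccl3 and Ccl4 lie beside each other on chromosome 11, within 91.8 kb of the mm10 assembly (GENCODE annotation), in that order. Ccl9 is at chr11:83572919-83578636, Ccl6 at chr11:83587882-83593087 and Ccl3 at chr11:83647844-83649355, all on the minus strand, and Ccl4 is at chr11:83662584-83664683 on the plus strand. The next chemokine gene on the Ccl9 side, Ccl5 at chr11:83525778-83530518, encodes an attractant of T cells. Ccl5 was at 3.23 ± 2.25 RPKM in APPPS1;Apoe-/- libraries and 2.66 ± 0.442 RPKM in APPPS1 libraries (SD, n = 7 and n = 6; log2 change 0.06, limma adjusted p = 0.919). Both genes that lie on the same side of the 3 lower genes, Ccl9 and Ccl5, were thus not called. A more distant group on the same chromosome holds the monocyte attractants Ccl2, Ccl7, Ccl12 and Ccl8. None of these 4 passed the limma test, and 1 of them, Ccl12, had an unadjusted p under 0.05. Ccl12 was at 4.63 ± 2.18 RPKM in APPPS1;Apoe-/- libraries and 7.66 ± 1.92 RPKM in APPPS1 libraries (log2 change -0.77 ± 0.27, SE, adjusted p = 0.0955). Ccl2 was at 0.899 ± 0.441 and 0.791 ± 0.232 RPKM in these groups (log2 change 0.08, adjusted p = 0.819).

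**Figure D2:**
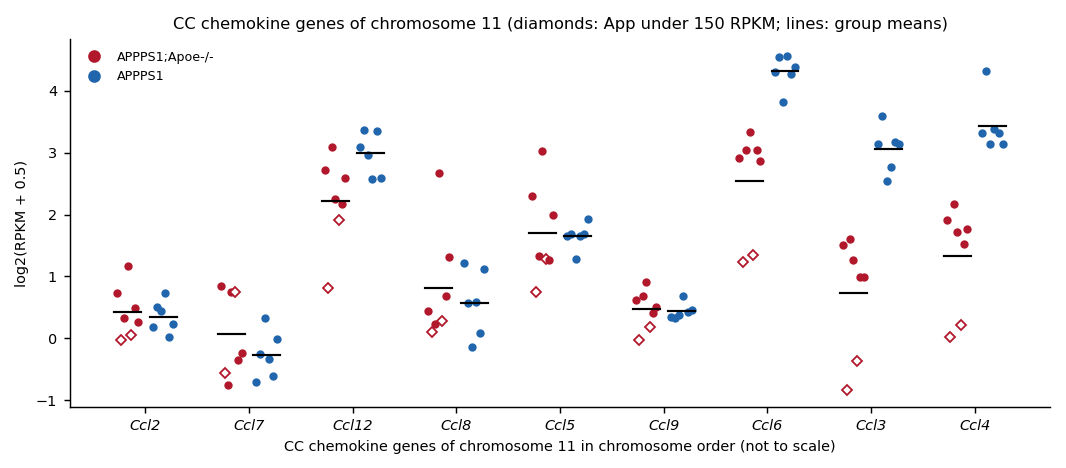
Log2(RPKM + 0.5) of the tested CC chemokine genes of chromosome 11 in chromosome order, with APPPS1;Apoe-/- libraries left of APPPS1 libraries for each gene; points are libraries, lines are group means (n = 7 and n = 6), open diamonds are the libraries with App under 150 RPKM, and distances are not to scale. Ccl6, Ccl3 and Ccl4 separate the groups, while Ccl5 and Ccl9 beside them overlap.

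The sequence before the start of the neighbouring genes Ccl3, Ccl6 and Ccl9 is shown, with that of Cxcl10 as the member induced by interferon. These genes were chosen after their values had been seen, and a link between the letters and the changes was not tested. RefSeq promoter windows for build GRCm38.p6 were matched by symbol for 6 of the 8 genes, all except Ccl4 and Cxcl16. Starts are those of RefSeq and can differ from the GENCODE positions given elsewhere. For Ccl3, on the minus strand, RefSeq starts at chr11:83649378 and GENCODE at chr11:83649355. The windows below hold the 250 bases before the start, read 5′ to 3′ on the strand of the gene, which is the minus strand for all of them. They are chr11:83649379-83649628 for Ccl3, chr11:83593088-83593337 for Ccl6, chr11:83578637-83578886 for Ccl9 and chr5:92348890-92349139 for Cxcl10. Capitals mark matches, on either strand, to the motifs named after them.
Ccl3: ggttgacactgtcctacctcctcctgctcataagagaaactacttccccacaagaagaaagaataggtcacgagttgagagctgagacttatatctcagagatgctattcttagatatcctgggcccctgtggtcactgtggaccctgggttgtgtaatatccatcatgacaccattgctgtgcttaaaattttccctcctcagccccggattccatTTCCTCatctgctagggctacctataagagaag
Ccl6: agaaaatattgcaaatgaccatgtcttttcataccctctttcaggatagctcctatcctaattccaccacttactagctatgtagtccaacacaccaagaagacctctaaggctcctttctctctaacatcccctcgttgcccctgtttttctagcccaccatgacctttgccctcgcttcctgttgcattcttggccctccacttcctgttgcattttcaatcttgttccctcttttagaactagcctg
Ccl9: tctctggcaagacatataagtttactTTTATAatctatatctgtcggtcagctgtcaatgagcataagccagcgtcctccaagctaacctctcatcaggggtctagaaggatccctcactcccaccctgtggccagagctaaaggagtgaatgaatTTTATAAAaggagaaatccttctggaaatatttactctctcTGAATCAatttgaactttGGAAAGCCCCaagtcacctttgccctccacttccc
Cxcl10: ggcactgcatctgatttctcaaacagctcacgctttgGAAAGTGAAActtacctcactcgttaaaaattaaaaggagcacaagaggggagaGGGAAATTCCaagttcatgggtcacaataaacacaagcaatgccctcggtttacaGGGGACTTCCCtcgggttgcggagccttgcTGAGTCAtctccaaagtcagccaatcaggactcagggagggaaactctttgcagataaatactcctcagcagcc
Searched on both strands were TGANTCA for AP-1, TTGCNNAA for C/EBP, GAGGAA as the core bound by PU.1, TATAAA as the TATA box, the consensus of NF-kB, and the core of the interferon-stimulated response element, which is GAAA repeated after 2 bases of any kind. The window of Ccl6 held 0 matches, and that of Ccl3 held a GAGGAA on its opposite strand, 33 to 28 bases before the start. GAGGAA was found in 23.3% of 32851 promoter windows of the same length. The Cx3cl1 window, not printed here, held GAGGAA matches 93 to 88 and 66 to 61 bases before the start. It also held a TATAAA 6 to 1 bases before the start. RefSeq starts Cx3cl1 at chr8:94772180, so all of these matches lie inside the GENCODE model, which starts at chr8:94772009. The Cx3cr1 window held 0 matches. The Ccl9 window held an NF-kB match 35 to 26 bases before the start, a TGANTCA 53 to 47 bases before it and 3 matches to TATAAA, of which 2 overlap. The Cxcl10 window held an interferon-stimulated element match 213 to 204 bases before the start, an NF-kB match 159 to 150 bases before it, 2 NF-kB matches that overlap from 104 to 94 bases before it, and a TGANTCA 74 to 68 bases before it. The shares of all windows with a match were 2.98% for the interferon-stimulated element, 7.25% for NF-kB, 6.75% for TGANTCA, 9.56% for TTGCNNAA and 12.4% for TATAAA. A match describes these letters and does not show binding.

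Cxcl10, which encodes an interferon-induced ligand of CXCR3 and whose promoter letters are shown above, was lower in APPPS1;Apoe-/- cortex. It lies at chr5:92346638-92348889 on the minus strand. Cxcl10 was at 0.308, 1.25 and 1.97 RPKM (lowest, median and highest) in APPPS1;Apoe-/- libraries, against 2.45, 2.58 and 3.11 RPKM in APPPS1 libraries. The groups did not overlap, and the APPPS1 libraries lay close together while the APPPS1;Apoe-/- libraries were spread. Replicate 2 was lowest and replicate 6, at 0.663 RPKM and with App in the usual range, was next. Its log2 change was -0.97 ± 0.21 (SE, limma adjusted p = 0.0087), and -0.77 without the low-App libraries (adjusted p = 0.0115). With the alignments covariate it was -0.93 and missed the threshold (limma adjusted p = 0.0966). Ccl3, Ccl4, Ccl6 and Cxcl10 were the 4 members with every APPPS1;Apoe-/- library below every APPPS1 library, a pattern that 2.17% of all tested genes showed.

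Cxcl16 encodes a membrane-bound ligand of CXCR6 that is shed by the protease ADAM10. It lies at chr11:70453983-70459984 on the minus strand, outside the CC cluster. Cxcl16 was at 0.428, 1.14 and 1.55 RPKM (lowest, median and highest) in APPPS1;Apoe-/- libraries, against 1.18, 1.63 and 1.82 RPKM in APPPS1 libraries. Of the 7 APPPS1;Apoe-/- libraries 4 lay below all APPPS1 libraries and 3 within their range. The log2 change of -0.46 ± 0.15 did not pass the test (SE, limma adjusted p = 0.0699; 95% interval -0.77 to -0.14 before adjustment for the number of genes). It passed when APPPS1;Apoe-/- replicate 4, the highest library of its group, was left out (log2 change -0.53, limma adjusted p = 0.0284), a fit in which 6.39% of all genes were lower. It was -0.28 without the low-App libraries (limma adjusted p = 0.157).

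The receptor gene Cx3cr1 was modestly lower and its ligand gene Cx3cl1 showed no difference beyond the spread of libraries. Cx3cr1 was at 15.2, 22.96 and 30.6 RPKM (lowest, median and highest) in APPPS1;Apoe-/- libraries, against 28.1, 30.6 and 35.1 RPKM in APPPS1 libraries. Of the 7 APPPS1;Apoe-/- libraries 6 lay below every APPPS1 library, and replicate 3 lay inside their range. The group means were 22.1 ± 5.36 and 31.02 ± 2.67 RPKM (SD, n = 7 and n = 6), so the APPPS1;Apoe-/- mean was 71.3% of the APPPS1 mean. The log2 change was -0.51 ± 0.13 (SE, limma adjusted p = 0.0239), and -0.33 without the low-App libraries, replicates 2 and 5, which were lowest at 15.2 and 15.9 RPKM (adjusted p = 0.0385). With the alignments covariate over 13 libraries it was -0.35 and missed the threshold (limma adjusted p = 0.265). RefSeq places Cx3cr1 at chr9:120048683-120068296 on the minus strand of mm10.

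Cx3cl1, at chr8:94772009-94782427 on the plus strand, was the most abundant of the 8 genes in every library. It was at 42.7, 50.2 and 56.8 RPKM (lowest, median and highest) in APPPS1;Apoe-/- libraries, against 45.5, 48.8 and 57.7 RPKM in APPPS1 libraries. The groups overlapped almost fully, with 6 of 7 APPPS1;Apoe-/- libraries inside the APPPS1 range. The low-App replicates 2 and 5, at 51.4 and 56.8 RPKM, were not low for this gene. Its log2 change was -0.0024 ± 0.07, with a 95% interval of -0.15 to 0.14 (SE, limma adjusted p = 0.989). Without the low-App libraries it was -0.05 (limma adjusted p = 0.7485). Log2 Cx3cr1 minus log2 Cx3cl1, again chosen after the values had been seen, averaged -1.19 in APPPS1;Apoe-/- libraries and -0.68 in APPPS1 libraries. This gap of -0.51 was -0.28 without the low-App libraries.

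**Figure D3:**
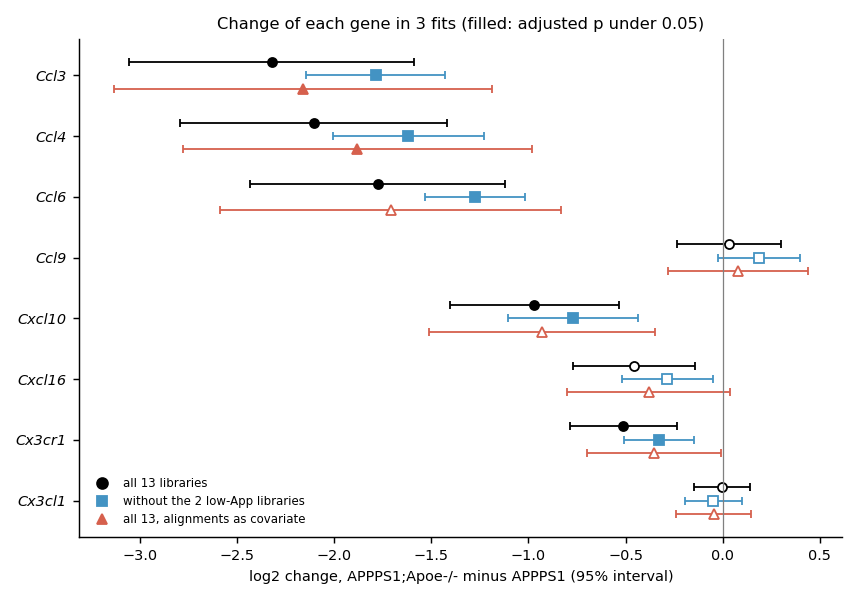
Log2 change of each gene, APPPS1;Apoe-/- minus APPPS1, with its 95% interval, from all 13 libraries (circles), without the 2 low-App libraries (squares) and from all 13 with log2 alignments as a covariate (triangles); filled symbols have an adjusted p under 0.05. Ccl3 and Ccl4 are filled in all 3 fits, and Ccl6, Cxcl10 and Cx3cr1 lose the call with the covariate.

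With both changes made together, the low-App libraries left out and alignments as a covariate, 3 of the 8 genes were lower, beside 1.48% of all genes. They were Ccl3 (-1.85), Ccl4 (-1.62) and Ccl6 (-1.45; limma adjusted p = 3.12e-04, 0.00226 and 3.72e-05). Cxcl10, at -0.73, and Cx3cr1, at -0.25, were not called there (limma adjusted p = 0.0759 and 0.2155). Alignments were fewer in the APPPS1;Apoe-/- group, so genotype and depth cannot be fully told apart.

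In mean RPKM, which is scaled per length, the 8 genes had the same order in both groups: Cx3cl1, Cx3cr1, Ccl6, Ccl4, Ccl3, Cxcl10, Cxcl16 and Ccl9. The order at the low end was less settled in APPPS1;Apoe-/- libraries. There Ccl3 exceeded Cxcl10 in 5 of 7 libraries, Cxcl10 exceeded Cxcl16 in 4 of 7 and Cxcl16 exceeded Ccl9 in 5 of 7. Ccl3 was below Cxcl10 only in the low-App replicates 2 and 5, at 0.0612 and 0.277 RPKM against 0.308 and 1.13 RPKM. These orders were not tested. In APPPS1 libraries each gene exceeded the next in 6 of 6 libraries, except Ccl4 over Ccl3 in 5 of 6. Mean Ccl3 and mean Cxcl10 were at 1.45 and 1.23 RPKM in APPPS1;Apoe-/- cortex, and at 1.96 and 1.44 RPKM there without the low-App libraries. In APPPS1 cortex Ccl3 was at 8.07 RPKM and Cxcl10 at 2.70 RPKM.

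General microglial marker genes were lower as well. Of 11 tested pan-microglia genes 10 were lower and 0 higher (median log2 change -0.63), all except Aif1. Over all genes tested 4.74% were lower and 3.48% higher. Without the low-App libraries 9 of the 11 were lower and 0 higher (median -0.42), beside 3.3% and 1.78% of all genes. The summed level of the 12 listed genes was 161 to 307 RPKM in APPPS1;Apoe-/- libraries and 381 to 441 RPKM in APPPS1 libraries. It was lowest in the low-App replicates 2 and 5, at 161 and 172 RPKM. Of 10 homeostatic microglia genes 5 were lower, and 4 without the low-App libraries. Their sums were 112 to 206 RPKM in APPPS1;Apoe-/- libraries and 208 to 252 RPKM in APPPS1 libraries. Each member was therefore set against microglia in the same library, as its log2 value minus the mean log2 value of the 11 pan-microglia genes. That mean was itself 0.66 lower in the APPPS1;Apoe-/- group, so 94.5% of all genes were called higher on this scale and 0.3% lower.

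Ccl3, Ccl4 and Ccl6 fell by more than this reference did. On the relative scale Ccl3 ranged from -3.81 to -2.08 in APPPS1;Apoe-/- libraries and from -1.61 to -0.52 in APPPS1 libraries. Its relative log2 change was -1.66, beside -1.44 for Ccl4 and -1.11 for Ccl6, and all 3 reached 5.83e-04, the lowest two-sided p of the exact permutation test. Without the low-App libraries the relative changes were -1.33, -1.16 and -0.82 (two-sided exact permutation p = 0.00216, 0.00216 and 0.00433). The 3 genes were called lower in the limma fit both times, beside 0.397% of all genes without the low-App libraries. Cxcl10 was at -0.31, Cxcl16 at 0.21 and Cx3cr1 at 0.15, and none of these passed (limma adjusted p = 0.0956, 0.244 and 0.403; by the exact test, p = 0.164, 0.0793 and 0.0734). Relative to homeostatic genes, a scale on which 0.764% of all genes were lower, Cxcl10 passed at -0.55 (limma adjusted p = 0.00802), while Cxcl16 and Cx3cr1 turned to -0.04 and -0.10 without a call. Ccl9 and Cx3cl1 were higher relative to the pan-microglia reference, by 0.69 and 0.66, as were most genes of the tissue.

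**Figure D4:**
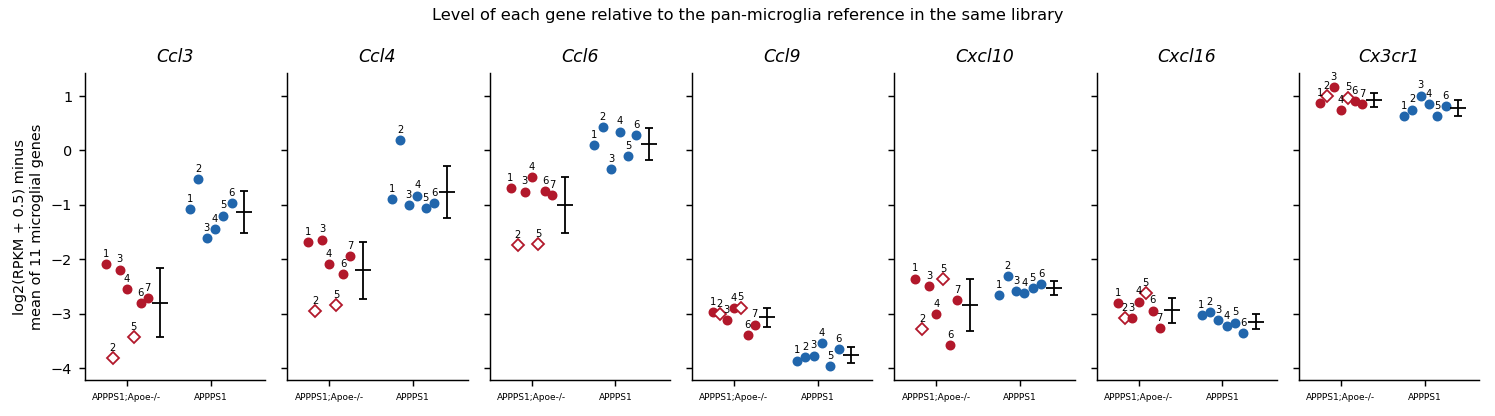
Log2(RPKM + 0.5) of 7 of the 8 genes, without Cx3cl1, minus the mean of 11 pan-microglia genes of that library (numbered points are replicates), with APPPS1;Apoe-/- left of APPPS1; bars show means, whiskers SD (n = 7 and n = 6), and open diamonds are the libraries with App under 150 RPKM. Ccl3, Ccl4 and Ccl6 stay separate between the groups, lower in APPPS1;Apoe-/-. Ccl9 is separate too but higher there, as most genes are on this scale, and Cxcl10, Cxcl16 and Cx3cr1 overlap.

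Markers of leukocytes from the blood, which could supply some of these transcripts, were weak. The T cell and monocyte lists had 0 tested genes, since all 5 and 4 measured genes had means under 0.5 RPKM. Their summed levels were 0.202 to 0.8997 RPKM for T cells and 0.297 to 1.30 RPKM for monocytes in APPPS1;Apoe-/- libraries, and 0.307 to 0.895 RPKM and 0.334 to 1.11 RPKM in APPPS1 libraries. Of the T cell genes Cd3d, Cd3g, Cd8a and Cd2 were at 0 in at least 1 library, as were Plac8 and Chil3 of the monocyte genes. Of 3 tested neutrophil genes none passed by limma, with 0 at an unadjusted p under 0.05, and their summed level, with the untested Mpo and Elane, reached 6.72 RPKM in APPPS1;Apoe-/- libraries and 2.95 RPKM in APPPS1 libraries. Of 3 tested perivascular macrophage genes, Stab1 was higher and 0 were lower. Among 9 neuronal genes, relevant to Cx3cl1, 1 was lower and 0 higher, and 0 were called without the low-App libraries. Astrocytes are a known source of Cxcl10. Of 6 astrocyte genes 2 (Aqp4 and Sox9) were lower and 0 higher by limma, and Slc1a3, Slc1a2 and Gja1 had positive changes of 0.13 to 0.14 at an unadjusted p under 0.05 without a call. The median log2 change of the 6 was 0.04, with sums of 393 to 464 RPKM in APPPS1;Apoe-/- libraries and 374 to 424 RPKM in APPPS1 libraries. Without the low-App libraries 0 of these 6 were called. Of 6 oligodendrocyte genes 3 were higher and 0 lower, with a median log2 change of 0.32. Their sums were 890.0 to 1410 RPKM in APPPS1;Apoe-/- libraries and 784 to 1111 RPKM in APPPS1 libraries, with 1255 and 1410 RPKM in the low-App replicates 2 and 5, and 0 of 6 were called without these. Of 6 endothelial genes 1 was higher and 0 lower, and without the low-App libraries 1 was higher and 1 lower. Their sums were 46.5 to 65.9 RPKM in APPPS1;Apoe-/- libraries and 37.8 to 54.8 RPKM in APPPS1 libraries. The 1 tested B cell gene did not pass, and the sums of all 4 were 0.626 to 1.41 RPKM and 0.977 to 1.19 RPKM in these groups. Beside these counts, 4.74% of all genes tested were lower and 3.48% higher, and 3.3% and 1.78% without the low-App libraries. The part of these markers in the results was not tested.

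Beyond the members, few genes of the chemokine family passed the test. Of 41 ligand genes listed, 40 were measured and 22 tested: 4 were lower, all of them members, 1 was higher and 17 did not pass. Over all genes tested 4.74% were lower and 3.48% higher, so 1 higher ligand among 22 is close to that share. Without the low-App libraries 4 ligands were lower and 0 higher. Among the 15 tested ligands that are not members 0 were lower by limma, with 1 (Ccl12) lower at an unadjusted p under 0.05. The ligand that was higher was Ccl19, which guides dendritic cells and T cells through CCR7. It was at 1.01 ± 0.37 RPKM in APPPS1;Apoe-/- libraries and 0.518 ± 0.142 RPKM in APPPS1 libraries (SD, n = 7 and n = 6; log2 change 0.54 ± 0.14, SE, adjusted p = 0.0281), and missed the threshold without the low-App libraries (0.58, adjusted p = 0.0505). The stromal chemokine gene Cxcl12 (log2 change -0.01, adjusted p = 0.940) and Cxcl14 (0.02, adjusted p = 0.927) did not pass. The median over the 22 ligands was -0.01, as over all genes.

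Of 24 receptor genes listed 23 were measured and 6 tested, and Cx3cr1 was the 1 called lower. The receptor genes Ccr1, Ccr2, Cxcr3 and Cxcr6, and the CXCR3 ligand gene Cxcl9, had means under 0.5 RPKM and were not tested. Among 21 tested genes of chemokine signalling and shedding, 0 passed by limma. Of these, 6 had an unadjusted p under 0.05, all of them lower: Gnai2, Arrb2, Rac2, Vav1, Prex1 and Adam17. The share of all genes under that unadjusted threshold is not given here, so this count is a description only. The sheddase gene Adam10 ranged from 10.9 to 13.2 RPKM in APPPS1;Apoe-/- libraries and from 11.7 to 14.1 RPKM in APPPS1 libraries, and Adam17 from 2.26 to 3.14 RPKM and from 2.89 to 3.40 RPKM (log2 change -0.09 and -0.19, adjusted p = 0.366 and 0.106).

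Likeness of profile was measured as the root mean square difference of log2 values, each gene centred on its mean, over the 13 libraries. This is a description that uses the genotype difference itself. For Ccl3 the nearest genes were Ccl4 (0.245), Clec7a (0.276), which encodes the glucan receptor dectin, and Ccl6 (0.382). The same 3 genes stood close together from the side of Ccl4, whose nearest were Ccl3, Ccl6 and Clec7a. Ccl6 was nearest to the inhibitory receptor gene Lilrb4a (0.182), then to Cd52 (0.281) and Tyrobp (0.2996), which encodes a signalling adaptor of microglial receptors. Cxcl10 was nearest to Usp18 (0.266), Phf11b (0.267) and Ifit3b (0.277), of which Usp18 and Ifit3b are interferon-induced. Cxcl16 was nearest to Ctsh (0.156), Ube2l6 (0.161) and Cd9 (0.162). Cx3cr1 was nearest to Ggta1 (0.109), Slco2b1 (0.112) and Itgam (0.117), the last being a gene of the microglial reference. Ccl9 (Mcur1, Rims1 and Akap12, from 0.124) and Cx3cl1 (Saysd1, the neurofilament gene Nefl and Hsf1, from 0.0483) varied little, so their nearest genes are ones that also varied little.

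Strand use in counting is not given in the sources used here, so reads of overlapping genes cannot be told apart. Cxcl10 lies inside Art3, which is on the other strand and stood at 3.04 ± 0.367 RPKM in APPPS1;Apoe-/- libraries and 3.04 ± 0.313 RPKM in APPPS1 libraries. Cxcl16 overlaps Zmynd15, and Ccl6 overlaps E230016K23Rik, both under 0.05 RPKM in each group mean. In RefSeq the model of Ccl4 starts inside Ccl3, which is on the other strand, so the models overlap in part.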

How the data were processed

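Cortical RNA from 13 mice was sequenced; tissue was flash frozen and RNA extracted with Trizol, and libraries used Clontech SMARTer chemistry, per the labels' protocols. The authors deposited RPKM per gene (reads scaled by gene length and mapped reads) and the number of alignments per library in 1 table. Per the submitters' processing notes, Partek and mm10 were used; how reads were aligned, counted by strand and annotated is not stated there. The deposited values are not counts, so estimated reads were derived from RPKM, GENCODE gene length and alignments.

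Values were transformed to log2(RPKM + 0.5). Genes averaging at least 0.5 RPKM (13343) were fitted in limma 3.58.1 (R 4.3.3; lmFit, eBayes with trend, genotype the only term), two-sided, and called at a Benjamini-Hochberg adjusted p under 0.05. A second fit subtracted the mean of 11 pan-microglia genes in each library. Relative levels were also tested by exact permutation of the genotype labels. The code was tested on simulated data. Alternatives covered pseudocounts, filters, scalings, weights, covariates and left-out libraries. The members and lists were chosen with earlier results of these data known. The text names the 8 genes, called genes and fixed genes of the wider lists (some are not reported here), and the 3 most similar profiles per gene; Ackr1, Ccrl2, Arrb2, Gnai2, Prex1, Rac2, Vav1 and the genes of the last part were named after their values were seen. Among 78 pairs of libraries 0 were identical. Replicate numbers follow accession order and pair nothing. The design counts mice; p-values measure their spread. Python 3.11.15, pandas 2.3.3, numpy 2.4.6 and matplotlib 3.10.9 handled tables and figures.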

Additional observations from a re-analysis of the deposited data

Results flagged for a closer look

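Of 48 sets of values, each a gene in a genotype, 4 held a library that stood far from the others of its group by Dixon's test; chance gives about 1 in 20. APPPS1 replicate 2 had 19.42 RPKM of Ccl4, while the rest of its group had 8.29 to 9.95 RPKM. The change of Ccl4 was called without each library in turn, with log2 changes of -2.24 to -1.89. APPPS1 replicate 4 had 1.10 RPKM of Ccl9, while the rest of its group had 0.756 to 0.8703 RPKM. Cxcl9, the interferon-gamma-induced ligand of CXCR3, was at 0.458 RPKM in APPPS1;Apoe-/- replicate 4, against 0 to 0.118 RPKM in the rest of that group. APPPS1 replicate 4 had 0.112 RPKM of Cxcl9, while the rest of its group had 0.0115 to 0.0476 RPKM. All of these Cxcl9 levels are low.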

How the results depend on the processing

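Across 30 results and 26 settings, 653 of 710 values kept their direction and side of the threshold, or moved a count by less than 1.5 times. Ccl3, Ccl4 and Ccl6 relative to pan-microglia genes did so in all settings, as did Ccl3 and Ccl4 themselves. The exceptions follow, and their cause was not tested. With the alignments covariate 132 genes were lower and 70 higher, 2 ligands were lower, 0 ligands (elsewhere Ccl19) higher and 0 receptors lower. There Ccl6 was at -1.71, Cxcl10 at -0.93 and Cx3cr1 at -0.35, and Cx3cl1 relative to microglia at 0.54, all without a call. With the covariate and without the low-App libraries 197 genes were lower and 84 higher, 0 ligands higher and 0 receptors lower, with Cxcl10 at -0.73 and Cx3cr1 at -0.25. Without the low-App libraries alone 237 genes were higher, 0 ligands were higher and Cx3cr1 minus Cx3cl1 was -0.28. With no filter, where more genes enter the adjustment, Cx3cr1 kept -0.51 but missed the threshold (adjusted p = 0.0659) and 0 ligands were higher. A filter of 1 RPKM also gave 0, and it removed Ccl9 and Ccl19. Array weights called 2 receptors lower, Cx3cr1 and Ccrl2. Cx3cl1, never called, turned to 0.0088 with median-of-ratios scaling, 0.0185 with array weights and 0.0102 with the sex score. Relative to microglia, Cxcl10 was called at a pseudocount of 0.1 (-0.52), with array weights (-0.43) and against homeostatic genes (-0.55), against which Cxcl16 was at -0.0397 and Cx3cr1 at -0.10.

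With each library left out in turn, 435 to 853 genes were lower and 276 to 741 higher (276 without APPPS1 replicate 6, 290 without APPPS1 replicate 2, 741 without APPPS1;Apoe-/- replicate 4). Between 1 and 3 receptors and 0 and 4 signalling genes were lower, the highest counts without APPPS1;Apoe-/- replicate 4. Between 0 and 1 ligands were higher, with 0 without APPPS1 replicate 1, 4 or 6 or APPPS1;Apoe-/- replicate 1. Log2 changes ran from -0.0432 to 0.11 for Ccl9, from -0.53 to -0.34 for Cxcl16, from -0.0332 to 0.0389 for Cx3cl1 and from -0.39 to -0.18 for Cxcl10 relative to microglia, which was called without APPPS1;Apoe-/- replicate 1 or 5. The comparisons of gene pairs and their alternatives were chosen after seeing the data. In the count of values that kept their side of the threshold, the pairs were scored by an exact permutation test. Its p-values are not given because of that choice. Depth limits Ccl3 most, with an estimated 1.28 to 350 reads per library, and Ccl9 had an estimated 35.4 to 189. No paired analysis was possible because the labels give no replicate numbers.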

Other observations

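Several chemokine genes that draw lymphocytes and monocytes reached their top value among the 13 libraries in APPPS1;Apoe-/- replicate 4, whose App was in the usual range. These genes were chosen after their values had been seen, and the values describe 1 library. Ccl5, an attractant of T cells, was at 7.68 RPKM there, against 1.18 to 4.43 RPKM in the other 12 libraries. The monocyte attractant gene Ccl8 was at 5.88 RPKM, against 0.406 to 1.97 RPKM, and Ccl2 was at 1.76 RPKM, against 0.48 to 1.16 RPKM. Cxcl13, which encodes a B cell attractant, was at 1.62 RPKM, against 0 to 0.338 RPKM. Ccl19 was at 1.58 RPKM, against 0.407 to 1.43 RPKM. The CXCR3 receptor gene Cxcr3 was at 0.427 RPKM, against 0.0372 to 0.335 RPKM, and Cd2, a gene of T cells, at 0.4502 RPKM, against 0 to 0.261 RPKM. Others did not follow: Ccl7, at 1.18 RPKM, ranked 3 of 13, and the T cell gene Cd3e, at 0.149 RPKM, ranked 5 of 13. The monocyte attractant gene Ccl12, at 4.24 RPKM, and Cxcl10, at 1.25 RPKM, each ranked 10 of 13. The summed level of 5 T cell genes was 0.8997 RPKM in that library, against 0.202 to 0.895 RPKM elsewhere, so it was highest by a small margin.

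Of the chemokines that separated the genotypes, that replicate had 1.90 RPKM of Ccl3, 2.80 RPKM of Ccl4 and 1.25 RPKM of Cxcl10, each inside the range of the other APPPS1;Apoe-/- libraries, and 9.53 RPKM of Ccl6, the highest of its group. Without that library 853 genes were called lower and 741 higher, against 633 and 465 with it. Among them, Cxcl16 was lower, as were the receptor genes Ackr1 (-0.21) and Ccrl2 (-0.35) and the signalling genes Gnai2 (-0.18), Rac2 (-0.40), Vav1 (-0.43) and Prex1 (-0.23; limma adjusted p from 0.027 for Ccrl2 to 0.0422 for Ackr1). The Rac activators Vav1 and Prex1 and the GTPase gene Rac2 act downstream of chemokine receptors in moving leukocytes.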
